A study of Mus musculus with 6 samples.

Results

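Imprinted genes are transcribed mainly from the copy inherited from 1 parent, and 10 of them were followed here in cells sorted from postnatal mouse testis. They were taken by symbol from the 51912 genes of the count table: Igf2, Dlk1, Peg3, Mest and Plagl1, which are expressed from the paternal copy, and H19, Igf2r, Meg3, Cdkn1c and Grb10, which are expressed mainly from the maternal copy. Each symbol matched 1 Ensembl identifier. The libraries came from 2 genotypes of C57BL/6J mice at postnatal day 4, Bud31-vKO (3 libraries, T1, T2 and T3) and wild type (3 libraries, C1, C2 and C3), and both were sorted from testis as THY1-positive and c-KIT-negative cells, a gate for spermatogonial stem cells. In Bud31-vKO mice Bud31, which encodes a spliceosome protein, was removed by Cre-loxP recombination, and the labels name neither the promoter of the Cre nor the number of animals. RNA was amplified by Smart-Seq2, which copies full-length polyadenylated RNA. The letters of the table's columns are read as genotypes by the usual convention, and the numbers are not tied to titles of samples.

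Imprints are methyl marks on DNA at control regions that differ between the copies of the parents. In the male germ line the inherited marks are erased in primordial germ cells, and marks of the paternal kind are laid down before birth, among others at the control regions shared by H19 and Igf2 and by Dlk1 and Meg3. Outside the germ line many imprinted genes are active in fetal and neonatal mesenchyme and are turned down as tissues mature. Read counts do not separate the parental copies, so the values below are sums over both.

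Library totals were 13240704 to 14507038 reads in Bud31-vKO and 13577015 to 18744466 reads in wild type. Reads were found for 12464 to 20286 genes in Bud31-vKO libraries and for 13762 to 22300 in wild type, and T2 and C3 had the fewest. Bud31 measured 47.2, 67.6 and 80.4 CPM (reads scaled to a common library size, with TMM factors) in T1, T2 and T3, against 138, 96.8 and 158 CPM in C1, C2 and C3. The 12 germ cell markers summed to 1777 to 2555 CPM in Bud31-vKO and 3378 to 3888 CPM in wild type. The germ cell helicase Ddx4, a defining marker, was present in each library. Dazl, the other defining marker, measured 906, 944 and 1086 CPM in T1, T2 and T3, against 1824, 1487 and 907 CPM in C1, C2 and C3, with overlap. Ddx4 and Mael did not overlap between the genotypes, and the other markers of this list did. Over all genes tested 11.2% did not overlap. The 8 stromal markers, collagen genes among them, summed to 6225 to 11983 CPM in Bud31-vKO and 7234 to 17871 CPM in wild type. This was more than the germ cell markers in each library, but most of it came from the collagen genes. Sums of different genes, not taken per length, do not compare the amounts of the cell types. The 10 Sertoli cell markers summed to 126 to 1710 CPM in Bud31-vKO and 126 to 448 CPM in wild type. Of their defining markers Amh was at 0 in T2 and C2, and Sox9 was at 0 in C3. The 6 T and NK cell markers summed to 113 to 604 CPM in Bud31-vKO and 6.93 to 99.8 CPM in wild type, and the 7 Leydig cell markers to 30.1 to 67.6 CPM in Bud31-vKO and 19.7 to 27.6 CPM in wild type, both without overlap. Their defining markers were at 0 in T2 and C3 for Cd3e of T cells, and in C3 for Star and in T1, T2 and C3 for Cyp11a1 of Leydig cells. Much of the Leydig cell sum was Nr5a1. It measured 48.7, 25.5 and 18.9 CPM in T1, T2 and T3, against 9.55, 10.1 and 19.7 CPM in C1, C2 and C3, with overlap. Ptprc gave 328 CPM of the T and NK cell sum in T2 and 68.1 CPM in C3, also with overlap. Il2rb, at 224 CPM in T2, and Klrb1c did not overlap. The part of these markers in the members' values was not tested. Fewer cells of a type and less RNA per cell cannot be told apart in such bulk libraries.

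Sequence around the start sites was available for 8 of the members, in 15 windows of the 250 bases before a start, from RefSeq on GRCm38.p6. The windows below belong to the members with the highest level per length among those 8, Plagl1 and Peg3, and to the neighbours Dlk1 and Meg3, which had the lowest. They are shown because methylation at CpG is the substance of an imprint. The windows were taken by start site and not as control regions, and methylation was not measured. Each reads 5′ to 3′ on the strand of its gene, with CpG dinucleotides in capitals. The Plagl1 window is chr10:13090582-13090831 on the plus strand, the Peg3 window chr7:6730420-6730669 on the minus strand, the Dlk1 window chr12:109452573-109452822 on the plus strand, and the Meg3 window chr12:109540746-109540995 on the plus strand.
Plagl1: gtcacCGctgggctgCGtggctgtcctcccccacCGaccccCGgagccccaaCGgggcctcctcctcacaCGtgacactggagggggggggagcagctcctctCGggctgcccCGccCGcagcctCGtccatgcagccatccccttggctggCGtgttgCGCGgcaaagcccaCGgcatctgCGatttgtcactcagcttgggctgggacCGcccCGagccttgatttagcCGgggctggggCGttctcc
Peg3: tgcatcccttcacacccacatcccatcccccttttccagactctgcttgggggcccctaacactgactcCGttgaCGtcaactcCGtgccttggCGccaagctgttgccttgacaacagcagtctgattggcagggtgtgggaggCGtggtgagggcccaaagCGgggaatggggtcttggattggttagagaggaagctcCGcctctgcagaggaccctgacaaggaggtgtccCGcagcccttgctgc
Dlk1: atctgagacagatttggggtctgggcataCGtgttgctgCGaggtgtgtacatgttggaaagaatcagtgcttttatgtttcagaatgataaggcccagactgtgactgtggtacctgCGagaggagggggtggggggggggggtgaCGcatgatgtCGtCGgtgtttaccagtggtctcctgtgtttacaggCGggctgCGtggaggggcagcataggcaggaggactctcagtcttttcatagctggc
Meg3: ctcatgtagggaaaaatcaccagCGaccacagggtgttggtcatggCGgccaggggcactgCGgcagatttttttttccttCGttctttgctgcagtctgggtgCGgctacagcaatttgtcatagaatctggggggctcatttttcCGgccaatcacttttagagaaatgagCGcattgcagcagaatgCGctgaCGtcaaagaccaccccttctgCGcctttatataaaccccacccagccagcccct
The Plagl1 window held 19 CpG, the Peg3 window 8, the Dlk1 window 8 and the Meg3 window 10, against a median of 6 over 32851 such windows of mouse genes. Over the 15 member windows the number ran from 0, at a second start of Meg3, to 40, at a start of Grb10, and the Igf2r window held 27. The letters GGGGCCCC, a motif known for the PLAGL1 protein and the same on both strands, stood in 1 of the 15 windows, that of Peg3, and in 0.889% of all windows. The letters TATAAA, searched on both strands, stood in 1 of the 15, the Meg3 window shown, and in 12.4% of all windows. Such matches describe the letters only.

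Members are also hosts of miRNAs, short RNAs that pair with messenger RNAs through bases 2 to 8, the seed, in capitals here. The mature miRNAs that lie within H19, Igf2 and Mest on the same strand are shown because the counts of these hosts are reported below. The miRNAs themselves were not measured by these libraries.
mmu-miR-675-3p (H19): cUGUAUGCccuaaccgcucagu
mmu-miR-675-5p (H19): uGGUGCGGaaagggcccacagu
mmu-miR-483-3p (Igf2): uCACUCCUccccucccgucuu
mmu-miR-483-5p (Igf2): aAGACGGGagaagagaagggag
mmu-miR-335-5p (Mest): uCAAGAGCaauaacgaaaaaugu
mmu-miR-335-3p (Mest): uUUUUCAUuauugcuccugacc
No seed is shared among these 6 miRNAs.

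All 10 members had reads in each of the 6 libraries, from 16 reads for Meg3 in T2 to 12119 reads for Plagl1 in C3, and all 10 passed the filter on low counts. By edgeR's quasi-likelihood test 0 of 10 passed an adjusted p of 0.05, against 0% of the 15240 genes tested (smallest adjusted p 0.9997). Unadjusted p-values of the members ran from 0.146 for Grb10 to 0.887 for Igf2r, so 0 of 10 lay under 0.05, against 2.91% of all genes tested. DESeq2 called 0.308% of the same genes and limma-voom 0%, and neither called a member. Values of the genotypes overlapped for 10 of 10 members, where 11.2% of all genes tested did not overlap. These tests do not show that the members are alike in both genotypes: the 95% interval of 8 of 10 members held both a 2-fold lower and a 2-fold higher level.

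**Figure D1:**
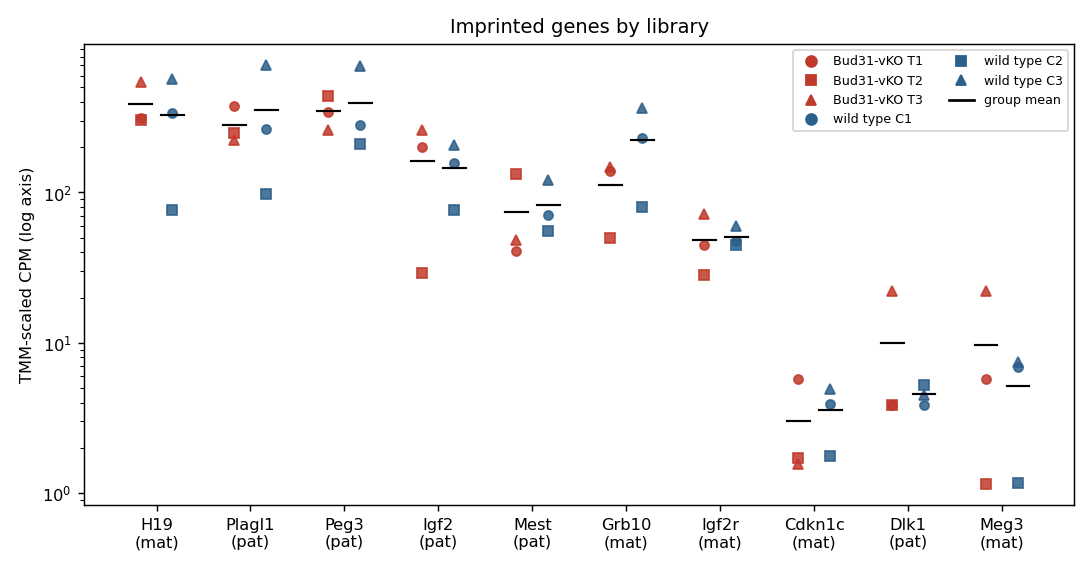
Level of each imprinted gene in each library, as TMM-scaled CPM on a log axis, for 3 Bud31-vKO libraries (red, left) and 3 wild type libraries (blue, right), with bars at group means and pat or mat for the expressed parental copy. The genes run from the highest to the lowest level per length, and the points of the genotypes overlap for 10 of 10 genes.

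Igf2, the insulin-like growth factor that drives fetal growth, maps to the minus strand of chromosome 7 (142650766 to 142666816, GRCm38, also called mm10). It measured 200, 29.0 and 259 CPM in T1, T2 and T3, against 156, 76.2 and 206 CPM in C1, C2 and C3. T2 was the lowest of the 6 libraries and T3 the highest, so both extremes were Bud31-vKO libraries. Igf2 averaged 163 ± 119 CPM in Bud31-vKO and 146 ± 65.6 CPM in wild type (SD, n = 3 each). Its log2 fold change was 0.15 ± 0.74 (standard error, adjusted p 0.9997 by edgeR), and it was -0.36 without T3, -0.16 without C2 and -0.01 without T1. Exons of Gm49394, a gene on the same strand, overlap much of Igf2; it was not analysed here, and how reads of the shared bases were counted is not given in the sources used here. Exons of Igf2os, an antisense transcript counted at under 2 CPM in each library, also overlap Igf2.

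H19, a long noncoding RNA expressed from the maternal copy downstream of Igf2, maps to the minus strand of chromosome 7 (142575529 to 142578143). It measured 312, 303 and 545 CPM in T1, T2 and T3, against 336, 76.6 and 568 CPM in C1, C2 and C3. C2 stood below the other 5 libraries, and C3 was the highest. The means were 386 ± 137 CPM in Bud31-vKO and 327 ± 246 CPM in wild type (SD, n = 3 each). The log2 fold change was 0.24, and its 95% interval ran from -1.24 to 1.73. Without C2 the value was -0.23, and without T3 it was -0.09.

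H19 and Igf2 share a control region, and the share of H19 in the reads of the pair shows how counts divide between them, as a comparison between libraries and not per length. H19 held 60.9% of these reads in T1, 91.3% in T2 and 67.8% in T3, and 68.3% in C1, 50.1% in C2 and 73.3% in C3. The exact Clopper-Pearson 95% intervals, which cover counting error only, were narrow, with 90.4% to 92.1% in T2 and 48.3% to 52.0% in C2. The highest share was thus in a Bud31-vKO library and the lowest in a wild type library, while T3 and C1 had intervals that overlapped. The mean share was 73.3 ± 15.9% in Bud31-vKO and 63.9 ± 12.2% in wild type (SD, n = 3 each), a difference within the spread. Across the 6 libraries log2(CPM + 1) of H19 and Igf2 had a Pearson r of 0.49 (exact permutation p 0.279, adjusted 0.279 over 2 pairs) and a Spearman rho of 0.83 (exact permutation p 0.0583, adjusted 0.117). Without the 2 libraries farthest from the median of H19, C2 and C3, r was 0.58.

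**Figure D2:**
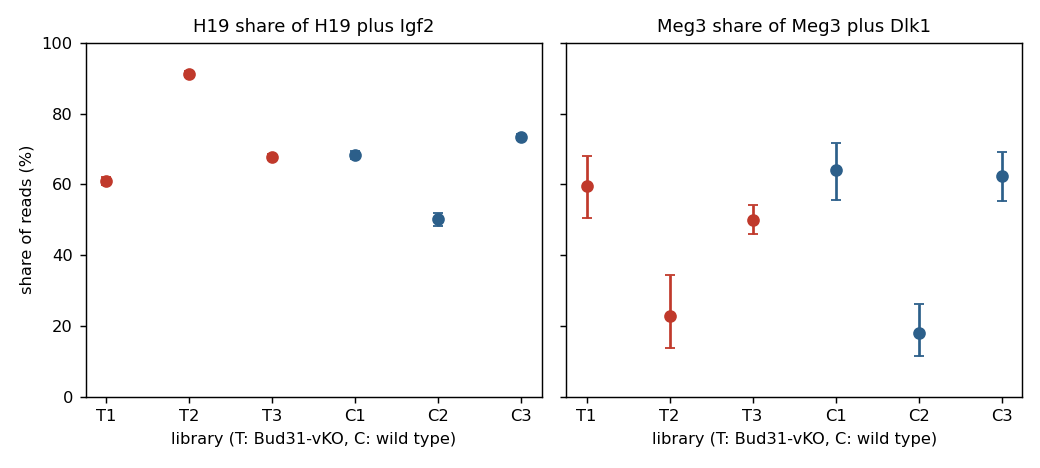
Share of H19 in the reads of H19 plus Igf2 (left) and of Meg3 in the reads of Meg3 plus Dlk1 (right), in percent, for Bud31-vKO libraries T1 to T3 (red) and wild type libraries C1 to C3 (blue), with exact 95% intervals of counting. H19 ranges from 91.3% in T2 to 50.1% in C2, and Meg3 from 63.9% in C1 to 18.1% in C2.

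Igf2r encodes the receptor that carries IGF2 to lysosomes for breakdown, and it maps to the minus strand of chromosome 17 (12682406 to 12769664). It measured 44.6, 28.2 and 71.6 CPM in T1, T2 and T3, against 47.5, 45.1 and 60.1 CPM in C1, C2 and C3. The wild type values lay within the span of the Bud31-vKO values, between T2 and T3. Igf2r had the smallest spread between libraries of a group among the 10 members, with a pooled SD of 0.49 on the log2(CPM + 1) scale, against a median of 1.01 over all genes tested. Its log2 fold change was -0.08 ± 0.55 (standard error), and 0.20 without T2 and 0.07 without C3. Airn, the paternally expressed noncoding RNA that silences Igf2r in other tissues, measured 47.8, 9.28 and 39.1 CPM in T1, T2 and T3, against 23.8, 20.1 and 44.1 CPM in C1, C2 and C3.

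Grb10 encodes an adaptor that dampens signalling from the insulin and IGF receptors, and it maps to the minus strand of chromosome 11 (11930508 to 12038683). It measured 139, 49.5 and 148 CPM in T1, T2 and T3, against 230, 79.8 and 364 CPM in C1, C2 and C3. T1 and T3 lay above C2 and below C1 and C3. Grb10 averaged 112 ± 54.3 CPM in Bud31-vKO and 225 ± 142 CPM in wild type (SD, n = 3 each), and its log2 fold change of -1.0 ± 0.62 (standard error) was the farthest below 0 among the members. By edgeR p was 0.146 unadjusted and 0.9997 adjusted. The 95% interval ran from a fold of 0.184 to 1.35. The value stayed below 0 without each library in turn, from -1.41 without C2 to -0.45 without C3, and it was -0.10 without both T2 and C3. The sums of germ cell markers also lay below all wild type sums in T1, T2 and T3, though most of these markers overlapped singly. Their part in the Grb10 values was not tested.

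Plagl1 and Peg3 encode zinc finger proteins that bind DNA, and PLAGL1 is known to act on other imprinted genes. Plagl1 maps to the plus strand of chromosome 10 (13060504 to 13131694) and measured 374, 249.3 and 223 CPM in T1, T2 and T3, against 263, 97.4 and 706 CPM in C1, C2 and C3. Peg3 maps to the minus strand of chromosome 7 (6703892 to 6730431) and measured 341, 438 and 261 CPM in T1, T2 and T3, against 283, 210 and 697 CPM in C1, C2 and C3. For both genes the wild type libraries held the lowest value, in C2, and the highest, in C3, and the Bud31-vKO values lay between. The ratio of the highest to the lowest library was 1.67 in Bud31-vKO and 7.24 in wild type for Plagl1, and 1.68 in Bud31-vKO and 3.31 in wild type for Peg3. The log2 fold changes were -0.33 for Plagl1 and -0.19 for Peg3, with standard errors of 0.64 and 0.48. They were 0.67 for Plagl1 and 0.52 for Peg3 without C3.

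Dlk1, a transmembrane protein related to Notch ligands, maps to the plus strand of chromosome 12 (109452823 to 109463336). It measured 3.87, 3.85 and 22.1 CPM in T1, T2 and T3, against 3.86, 5.25 and 4.48 CPM in C1, C2 and C3. T3 stood apart, and the other 5 libraries lay within 3.85 to 5.25 CPM. The log2 fold change of 1.13 ± 1.43 (standard error) rested on T3, and it was -0.23 without it.

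Meg3, a long noncoding RNA of the maternal copy, maps next to Dlk1 on the plus strand of chromosome 12 (109541001 to 109571726). It measured 5.70, 1.14 and 22.1 CPM in T1, T2 and T3, against 6.85, 1.16 and 7.45 CPM in C1, C2 and C3. T3 was again the highest, and T2 and C2 were the lowest. The log2 fold change was 0.90 ± 1.60 (standard error), and -0.60 without T3. Meg3 held 59.5%, 22.9% and 50% of the reads of the pair in T1, T2 and T3, and 63.9%, 18.1% and 62.4% in C1, C2 and C3. The shares were low in T2 and C2, where they rested on 70 and 116 reads, and their means were 44.1 ± 19.03% in Bud31-vKO and 48.2 ± 26.0% in wild type (SD, n = 3 each). Pearson's r between log2(CPM + 1) of Meg3 and Dlk1 was 0.68 (exact permutation p 0.103, adjusted 0.206 over 2 pairs) and Spearman's rho 0.60 (exact permutation p 0.242, adjusted 0.242), and r was 0.99 without T2 and C2. That last value kept T3, which stood far above T1, C1 and C3 for both genes, so it rested on T3. T3 also had the highest sum of the 6 endothelial markers, 220 CPM, against 4.35 to 83.0 CPM in T1 and T2 and 0.116 to 110 CPM in wild type. The 6 erythroid markers were highest in T3 too, at 216 CPM, against 1.07 to 11.3 CPM in T1 and T2 and 8.90 to 74.5 CPM in wild type. The part of either list in the T3 values was not tested.

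Mest, a protein with the fold of alpha/beta hydrolases, maps to the plus strand of chromosome 6 (30723547 to 30748465). It measured 40.7, 133 and 48.2 CPM in T1, T2 and T3, against 71.1, 55.1 and 120 CPM in C1, C2 and C3. T2 and C3, in which the fewest genes were detected, were the highest in their genotypes. The log2 fold change was -0.15 ± 0.59 (standard error), and 0.26 without C3, 0.17 without T1 and 0.08 without T3. Exons of Copg2 on the opposite strand overlap Mest, and their reads cannot be told apart unless strand was used in the counting, which is not given in the sources used here. Copg2 itself averaged 47.0 ± 2.89 CPM in Bud31-vKO and 55.4 ± 22.4 CPM in wild type (SD, n = 3 each).

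Cdkn1c encodes p57, an inhibitor of cyclin-dependent kinases, and maps to the minus strand of chromosome 7 (143458339 to 143461050). It was the least counted member by group means, at 5.78, 1.71 and 1.55 CPM in T1, T2 and T3, against 3.94, 1.77 and 4.95 CPM in C1, C2 and C3. These levels stood on 21 to 79 reads in Bud31-vKO and 32 to 85 reads in wild type. The log2 fold change was -0.24 ± 1.54 (standard error), and it was 0.05 without T2, 0.07 without T3 and 0.10 without C3. Kcnq1ot1, the paternally expressed RNA that silences the Cdkn1c domain in other tissues, measured 234, 0.143 and 63.1 CPM in T1, T2 and T3, against 169, 33.1 and 98.2 CPM in C1, C2 and C3. The T2 value lies under the level of 3 reads in that library, 0.214 CPM.

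**Figure D3:**
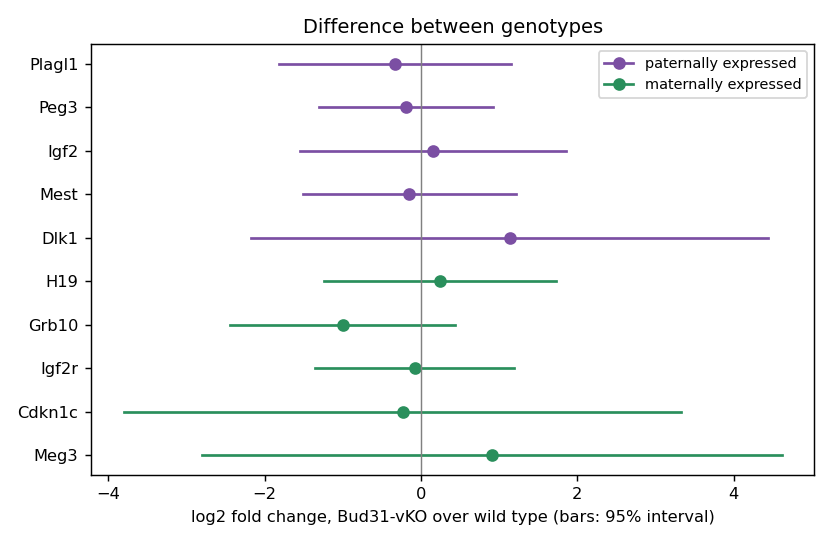
Log2 fold change of each imprinted gene, Bud31-vKO over wild type, with its 95% interval from edgeR's quasi-likelihood fit, for paternally expressed (purple) and maternally expressed (green) genes. The points run from -1.0 for Grb10 to 1.13 for Dlk1, and each interval includes 0.

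The members were next taken by expressed parental copy. Among the 5 paternally expressed members 2 had a log2 fold change above 0 and 3 below, with a median of -0.15, and among the 5 maternally expressed members 2 were above and 3 below, with a median of -0.08. Over all genes tested 51.1% were above 0, and the median was 0.02. Without C3 the median of the paternally expressed members was 0.52. The paternally expressed members summed to 960, 854 and 814 CPM in T1, T2 and T3, against 777, 444 and 1734 CPM in C1, C2 and C3. The maternally expressed members summed to 506, 384 and 787 CPM in T1, T2 and T3, against 624, 204 and 1004 CPM in C1, C2 and C3. Paternally expressed members thus held 65.5%, 69.0% and 50.8% of the summed CPM in T1, T2 and T3, and 55.5%, 68.5% and 63.3% in C1, C2 and C3. The means of 61.8 ± 9.62% in Bud31-vKO and 62.4 ± 6.56% in wild type (SD, n = 3 each) differed by less than the spread. Leaving out H19, the share was 83.8 ± 7.20% in Bud31-vKO and 76.8 ± 3.56% in wild type (SD, n = 3 each), with overlap between the genotypes. Taken per kilobase, the paternally expressed share was 39.7 ± 7.78% in Bud31-vKO and 45.1 ± 9.18% in wild type (SD, n = 3 each), again with overlap. On that scale the paternally expressed members held the smaller part of both means, and the share was lower in Bud31-vKO, against higher when H19 was left out.

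Levels of the members differed widely between libraries of a genotype. The 10 members together took 0.151%, 0.120% and 0.158% of all reads in T1, T2 and T3, and 0.142%, 0.0626% and 0.274% in C1, C2 and C3. C3 held the highest value of 4 members (Peg3, Plagl1, H19 and Grb10) and T3 of another 4 (Igf2, Dlk1, Igf2r and Meg3). T2 held the lowest value of 5 members and C2 of 3. The sum of the 8 stromal markers was highest in C3, at 17871 CPM, and next in T3, at 11983 CPM, and lowest in T2, at 6225 CPM. Its part in the members' levels was not tested. The pooled SD of the members within genotypes ran from 0.49 for Igf2r to 1.44 for Meg3 on the log2(CPM + 1) scale, with a median of 0.96, and 4 of 10 lay above the median of all genes tested.

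**Figure D4:**
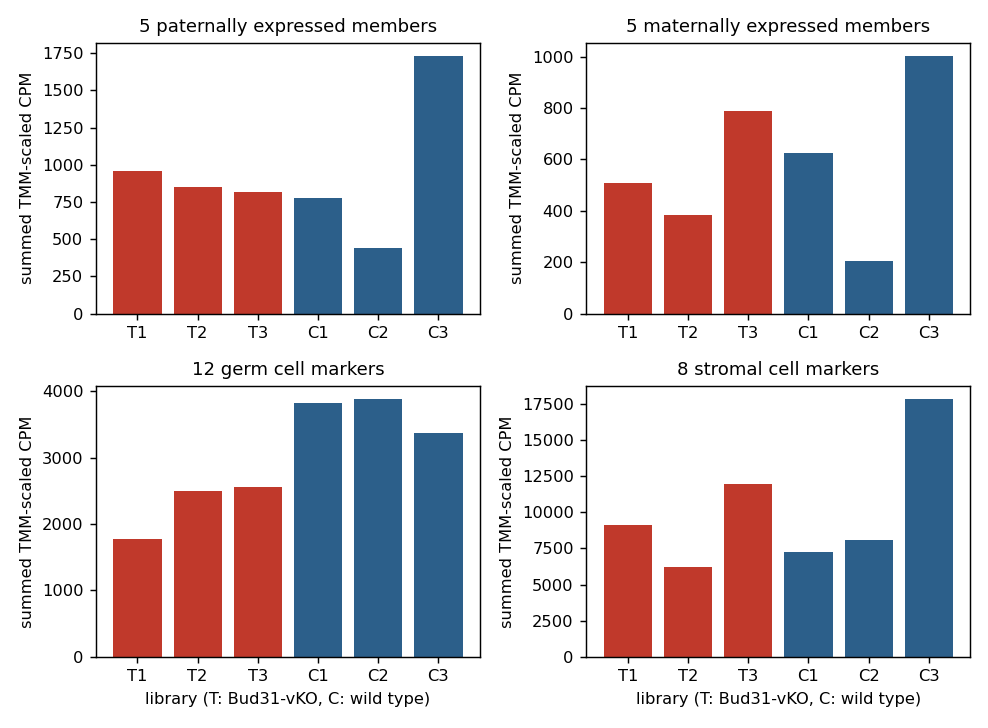
Summed TMM-scaled CPM of the 5 paternally and 5 maternally expressed members (top) and of the 12 germ cell and 8 stromal cell markers (bottom) in Bud31-vKO libraries T1 to T3 (red) and wild type libraries C1 to C3 (blue). C3 has the highest bar for both parental sums and for stromal markers, and germ cell markers reach 1777 to 2555 CPM in Bud31-vKO and 3378 to 3888 CPM in wild type.

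Per kilobase of merged exons, H19 was the most abundant member, at 145 ± 73.5 CPM per kilobase over all libraries (SD, n = 6), above 98.2% of the genes tested. It averaged 157 ± 55.7 CPM per kilobase in Bud31-vKO and 133 ± 99.9 CPM per kilobase in wild type (SD, n = 3 each), and it lay above the next member in 6 of 6 libraries. Plagl1 followed at 40.8 ± 26.7, Peg3 at 27.9 ± 13.3, Igf2 at 27.0 ± 15.1, Mest at 19.8 ± 9.95 and Grb10 at 18.5 ± 12.6 CPM per kilobase (SD, n = 6 each). Neighbours in this stretch did not differ beyond their spread, with Plagl1 above Peg3 in 4 of 6 libraries and Peg3 above Igf2 in 3 of 6. Grb10 in turn lay above Igf2r, at 5.32 ± 1.60 CPM per kilobase, in 6 of 6 libraries. Cdkn1c at 1.61 ± 0.909 and Dlk1 at 1.28 ± 1.29 CPM per kilobase again overlapped. Meg3 was lowest at 0.409 ± 0.427 CPM per kilobase (SD, n = 6), above 3.28% of the genes tested, and below Dlk1 in 6 of 6 libraries. Merged exons of Meg3 span 18089 bases, against 14548 bases for its longest transcript, on which its level was 0.509 CPM per kilobase.

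Other imprinted genes, listed from those described in at least 1 mouse tissue, were counted in the same way. Of 25 paternally expressed genes 21 could be tested, 9 above 0 and 12 below, with a median log2 fold change of -0.08. Of 26 maternally expressed genes 18 could be tested, 8 above 0 and 10 below, with a median of -0.10. By edgeR 0 of these 39 passed the adjusted test, and 1 had an unadjusted p under 0.05, as did 2.91% of all genes tested. That gene was Zdbf2, a paternally expressed gene for a zinc finger protein, at 92.1, 137 and 67.8 CPM in T1, T2 and T3, against 61.0, 21.5 and 40.9 CPM in C1, C2 and C3. Each Bud31-vKO value lay above each wild type value, with a log2 fold change of 1.27 ± 0.54 (standard error). By edgeR p was 0.0479 unadjusted and 0.9997 adjusted. Genotypes did not overlap for 5 of the 21 and 2 of the 18 genes, where the share over all genes tested was 11.2%.

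Further named genes of these lists were further from the threshold. Gab1, an adaptor of growth factor receptors, measured 27.2, 31.5 and 20.7 CPM in T1, T2 and T3, against 37.4, 78.2 and 58.6 CPM in C1, C2 and C3, with a log2 fold change of -1.13 and an unadjusted p of 0.0886. Nap1l5, a gene related to nucleosome assembly proteins, measured 3.65, 0 and 2.74 CPM in T1, T2 and T3, against 5.40, 31.6 and 21.0 CPM in C1, C2 and C3. For both genes each Bud31-vKO value lay below each wild type value. Among maternally expressed genes the smallest unadjusted p-values were 0.161 for Nap1l4, a histone chaperone gene, 0.180 for Asb4 and 0.183 for H13, a signal peptide peptidase. H13 measured 76.6, 103 and 86.3 CPM in T1, T2 and T3, against 54.3, 67.2 and 57.8 CPM in C1, C2 and C3, without overlap. Asb4 was counted at 0, 23.8 and 4.88 CPM in T1, T2 and T3, against 0.219, 1.49 and 0 CPM in C1, C2 and C3. Its log2 fold change of 4.04 was 2.09 without T2 and 6.35 without C2.

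**Figure D5:**
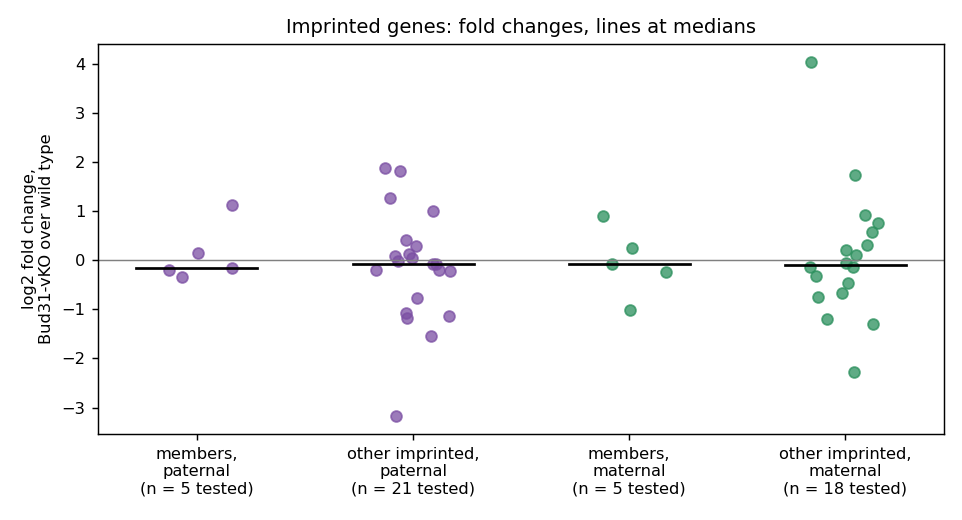
Log2 fold change, Bud31-vKO over wild type, of the imprinted members and of the other imprinted genes that could be tested (21 paternally expressed, purple, and 18 maternally expressed, green), with lines at the medians. The medians lie at -0.15 and -0.08 for the members and at -0.08 and -0.10 for the other genes, and points scatter on both sides of 0.

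Among 16 tested genes of IGF and insulin signalling, 10 had a log2 fold change above 0 and 6 below, with a median of 0.19, and 0 passed the adjusted test by edgeR. Insr, the insulin receptor, which also binds IGF2, had the smallest p of the list. It measured 83.3, 68.1 and 72.8 CPM in T1, T2 and T3, against 32.4, 40.8 and 31.8 CPM in C1, C2 and C3. The genotypes did not overlap and each varied little within itself, at 74.7 ± 7.77 CPM in Bud31-vKO and 35.0 ± 5.04 CPM in wild type (SD, n = 3 each). The log2 fold change was 1.09 ± 0.46 (standard error), and by edgeR p was 0.0449 unadjusted and 0.9997 adjusted. Genotypes did not overlap for 1 of the 16 genes, Insr, where 11.2% of all genes tested did not overlap. Igf1r, the main receptor for IGF2, averaged 211 ± 113 CPM in Bud31-vKO and 211 ± 71.5 CPM in wild type (SD, n = 3 each). Igfbp2 and Igfbp4, which bind IGFs outside cells, had log2 fold changes of -1.17 and 0.48 with unadjusted p-values of 0.102 and 0.163. Without C3 the value of Igfbp2 was -0.64.

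Of 15 tested factors that set or keep imprints, 8 were above 0 and 7 below, with a median of 0.09, and 0 passed the adjusted test by edgeR. Genotypes did not overlap for 4 of the 15, where the share over all genes tested was 11.2%. Kdm1b, a histone demethylase that is needed to set maternal imprints in mouse oocytes, measured 8.70, 19.1 and 24.0 CPM in T1, T2 and T3, against 25.9, 37.8 and 85.8 CPM in C1, C2 and C3 (unadjusted p 0.0879). Its log2 fold change was -1.53, and -0.86 without C3. Ctcf, the insulator protein that binds the unmethylated control region of H19 and Igf2, measured 94.4, 303 and 125 CPM in T1, T2 and T3, against 68.8, 64.2 and 2.39 CPM in C1, C2 and C3. C3 lay far below the other libraries for Ctcf, and the log2 fold change of 1.95 ± 1.04 (standard error) had an unadjusted p of 0.0979. It was 1.29 without T2, 1.42 without C3 and 0.73 without both. Dnmt3b, a de novo DNA methyltransferase, had a log2 fold change of -1.37 with an unadjusted p of 0.0876, and -0.66 without C3.

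The genes most like a member over the 6 libraries were taken by Pearson's r of log2(CPM + 1) among 9580 other genes that averaged 10 CPM or more. For Igf2 these were Hmcn1 with r of 0.997, Bicc1 with 0.996 and Lrp6 with 0.995, of which Hmcn1 measured 83.5, 1.85 and 150 CPM in T1, T2 and T3, against 55.1, 19.1 and 84.4 CPM in C1, C2 and C3. For H19 they were Hspg2 with 0.98, Rapgef2 with 0.98 and Tgfbr2 with 0.97. For Meg3 they were Ide, C1qtnf7 and Dnajc3, with r of 0.98, 0.97 and 0.97, and for Dlk1 Ppargc1b, Hivep1 and Smarca2, with 0.97, 0.97 and 0.96. Ppargc1b measured 0.146, 0 and 60.0 CPM in T1, T2 and T3, against 1.31, 0.663 and 0 CPM in C1, C2 and C3. It thus reached the mean of 10 CPM only through T3, the library in which Dlk1 was highest. With 6 libraries and 9580 candidates the highest r values are large by selection alone, and they are given as a description.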

How the data were processed

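The authors deposited unscaled whole-number counts of reads for each Ensembl gene. Their aligner, counting tool and use of strand: not given in the sources used here. Per the submitters' processing notes, bcl2fastq and the build mm10 were used. Symbols (51633 of 51912 identifiers), coordinates and exon lengths came from GENCODE on GRCm38, and sequences from RefSeq. Members and lists were chosen with earlier results of these data known. Genes were kept with filterByExpr and scaled by TMM, and genotypes were compared in R 4.3.3 with edgeR 4.0.16 (quasi-likelihood test without covariates), p-values adjusted by Benjamini-Hochberg over all 15240 genes at 5%. Steps were tested on simulated data. At the spread estimated from these libraries, edgeR recovered 0 of 50 simulated 2-fold changes, 4 of 50 4-fold changes and 10 of 50 16-fold changes. Most true differences of such sizes would thus be missed. Beside the members, the text names Bud31, the genes of each list with an unadjusted p under 0.05 and, where these were fewer than 3, the 3 with the smallest p, the first 2 genes of a marker list as its defining markers, and the 3 genes most like H19, Igf2, Dlk1 and Meg3. Airn, Kcnq1ot1, Igf1r, Mael, Nr5a1, Ptprc, Il2rb, Klrb1c, and Igf2os and Copg2, with exons that overlap a member, were added after their values were seen. Alternatives were other scalings and filters, DESeq2 1.42.0, limma-voom (limma 3.58.1), a block for library number, and libraries left out. Nothing in the labels says that libraries came from separate animals, so p-values measure the spread between samples, which may be technical. A level of 3 reads equals 0.166 to 0.222 CPM, for counting error only. Level per length is CPM per kilobase of merged exons. Correlations of pairs used scipy 1.17.1.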

Additional observations from a re-analysis of the deposited data

How the results depend on the processing

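No member passed the adjusted test under any of the alternatives run (smallest adjusted p 0.769 for Grb10). The number of genes called was 0 higher and 0 lower by edgeR, 5 and 2 without a filter, and 17 and 30 by DESeq2; the cause was not tested. Log2 fold changes turned sign for Igf2 with limma-voom (-0.23) and with the replicate block for library number (-0.22), and for Plagl1 likewise (0.08 and 0.11). Without T2 and C3, the libraries with the fewest genes detected, they were 0.74 for Plagl1, 0.30 for Peg3, 0.34 for Igf2r and 0.37 for Cdkn1c. Igf2 was then at 0.99, H19 at 1.07, Meg3 at 1.81 and Dlk1 at 1.52. Mest and Grb10 were below 0, at -0.49 and -0.10, and the paternally expressed median was 0.74. With each library left out in turn the ranges were -0.36 to 0.66 for Igf2, -0.23 to 1.53 for Dlk1, -0.50 to 0.52 for Peg3, -0.88 to 0.26 for Mest, -0.79 to 0.67 for Plagl1, -0.23 to 0.93 for H19, -0.49 to 0.20 for Igf2r, -0.60 to 1.44 for Meg3, -1.09 to 0.10 for Cdkn1c, and -0.38 to 0.52 for the paternally expressed median. Grb10, Zdbf2 and Insr kept their direction in 15 of 15 alternatives each. Unadjusted p-values ran from 0.0283 (edgeR, replicate block) to 0.855 (edgeR, without T2 and C3) for Grb10. They ran from 0.0264 (limma-voom) to 0.158 (edgeR, without T2 and C3) for Zdbf2. For Insr they ran from 0.0087 (DESeq2) to 0.130 (edgeR, no filter). On the longest transcript Peg3 reached 42.7 and Grb10 33.2 CPM per kilobase. Same-numbered libraries deviated together with r of 0.18, 0.08 and -0.04, so the numbers were not taken to pair them, and the block called 0 genes.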
